A study of Mus musculus with 50 samples.

Results

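Many protein-coding genes in the mouse share their promoter region with a long noncoding RNA that is transcribed the other way, and GENCODE vM21 sets such RNAs apart as the gene type bidirectional_promoter_lncRNA. The annotation gives this type to 190 genes in the deposited files. Of these, 101 reached 1 CPM (counts scaled to library size) in 5 or more of the 50 libraries and are the members described here. They were chosen by annotated type and by that minimum. They made up 101 of the 19108 genes that passed the same minimum, out of 55487 genes in the files. Each member is set beside its partner, the protein-coding gene on the opposite strand with the nearest annotated start.

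The RNA came from mouse frontal cortex of 2 genotypes, wild type (WT) and Setd1a+/- (labelled Het), the second with 1 copy of the loss-of-function tm1d allele of a knockout-first design. There were 5 mice of each genotype at E14, E18, P7, P35 and P70, which makes 10 groups of 5 libraries. The sample labels name the strain C57BL/6NTac, while the study's methods describe a mixed background of C57BL/6NTac and C57BL/6J and embryonic days E14.5 and E18.5. Fathers were heterozygous and mothers wild type, the subjects were described as male, the postnatal mice were littermates, and frontal brain was taken from embryos. Libraries held 35507165 to 43907318 counted fragments of poly-A captured RNA. Counting ignored the strand, and a fragment lying over several genes added to each one's count, so reads of overlapping or antisense genes cannot be told apart.

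4 libraries stood apart from the rest. The libraries labelled WT E14 replicate 5 and WT E18 replicate 2 held 60159 and 55644 counts of Xist, the RNA of the inactive X chromosome of females, and at most 3 counts of the Y-linked gene Ddx3y. None of the other 48 libraries passed 27 counts of Xist, and each of those had 1243 or more of Ddx3y, so these 2 libraries go against the description of the mice as male. The log2 levels of all tested genes in a library were set against the mean of the other libraries of its age and genotype. In WT P7 replicate 2 they deviated by 0.630 (root mean square), against 0.233 to 0.300 in the other 9 P7 libraries. Its summed level of 5 choroid plexus markers was 605 CPM, against 2.82 to 5.41 CPM in the others. It also stood apart in the oligodendrocyte markers, which were higher there, in the hindbrain marker En2, at 52.7 CPM against at most 0.200 CPM in the others, in the astrocyte markers, at 787 CPM against 379 to 442 CPM, in the progenitor markers, at 415 CPM against 147 to 226 CPM, and in the diencephalon markers, at 135 CPM against 67.2 to 76.1 CPM. Its summed level of 7 cortical projection neuron markers was 683 CPM, against 1286 to 1449 CPM in the others. Het E14 replicate 2 had the largest deviation at E14, 0.559 against 0.283 to 0.498. Its endothelial markers summed to 333 CPM against 62.0 to 115 CPM in the other E14 libraries, and its meningeal fibroblast markers to 485 CPM against 1.53 to 163.01 CPM. The cortical projection neuron markers were present in every library, from 683 CPM in WT P7 replicate 2 upwards.

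Setd1a encodes a histone methyltransferase that trimethylates lysine 4 of histone H3 at promoters. Its counts cover the whole gene, and 52.3% of its exonic bases are shared with another annotated gene, so they do not check the deleted part of the allele. Setd1a at E14 measured 120.2, 121, 128, 112 and 113 CPM in WT replicates 1 to 5 and 141, 131.2, 119.8, 133.1 and 122 CPM in Setd1a+/- replicates 1 to 5. Setd1a at E18 measured 88.8, 90.7, 90.3, 82.3 and 94.9 CPM in WT and 99.0, 110.4, 92.5, 98.6 and 107 CPM in Setd1a+/-. The 2 genotypes overlapped at both embryonic ages, with higher means in Setd1a+/-. Setd1a at P7 measured 69.2, 73.6, 66.8, 67.3 and 68.0 CPM in WT and 78.6, 74.8, 72.8, 79.6 and 79.8 CPM in Setd1a+/-. Setd1a at P35 measured 87.3, 78.7, 77.6, 81.3 and 81.1 CPM in WT and 88.2, 84.0, 84.9, 85.7 and 87.3 CPM in Setd1a+/-. Setd1a at P70 measured 80.7, 85.0, 81.0, 78.7 and 87.6 CPM in WT and 79.0, 82.5, 78.3, 73.6 and 93.8 CPM in Setd1a+/-. The Setd1a+/- mean was higher at the first 4 ages and a little lower at P70, and the log2 fold change with age as a covariate was 0.11 (SE 0.0244, adjusted p = 0.00439, edgeR's quasi-likelihood test).

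As background, RNA polymerase II starts in both directions at many mammalian promoters, above all at those rich in CpG. The RNA made away from the gene is usually short, because early cleavage signals and the Integrator complex end it and the nuclear exosome degrades it. Where splice sites recognised by U1 snRNP come before such signals, a longer polyadenylated RNA can form, and annotated divergent noncoding genes are of that kind. A poly-A library such as these measures the stable RNA and not transcription itself.

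The following promoters are shown because they carry a member whose level differed between the genotypes, and because the whole stretch between the 2 annotated starts fits in the window. The genotype test called 9 members, and in 6 of them both starts lay inside the partner's promoter in the RefSeq table for GRCm38.p6 (250 bases before to 50 after the RefSeq start). That start is not the annotated GENCODE start of the partner for Thap7, Nudt3 and Pik3c2a, and the capitals follow GENCODE. Each sequence runs 5′ to 3′ in the partner's direction. Capitals mark the bases from the member's annotated start to the partner's, both included. The window of Gm49492 and Pou6f1 is chr15:100599935-100600234 on the minus strand, with 221 bases in capitals. That of Gm49785 and Thap7 is chr16:17531003-17531302 on the minus strand, with 47 bases. That of 2310010J17Rik and Picalm is chr7:90129963-90130262 on the plus strand, with 230.0 bases. That of Gm20501 and Brsk2 is chr7:141949501-141949800 on the plus strand, with capitals from 1 start to the other as in the rest. That of Gm49741 and Nudt3 is chr17:27623403-27623702 on the minus strand, with 3 bases, so the 2 annotated starts almost touch. That of AV356131 and Pik3c2a is chr7:116443409-116443708 on the minus strand, with 127 bases.
Gm49492 and Pou6f1: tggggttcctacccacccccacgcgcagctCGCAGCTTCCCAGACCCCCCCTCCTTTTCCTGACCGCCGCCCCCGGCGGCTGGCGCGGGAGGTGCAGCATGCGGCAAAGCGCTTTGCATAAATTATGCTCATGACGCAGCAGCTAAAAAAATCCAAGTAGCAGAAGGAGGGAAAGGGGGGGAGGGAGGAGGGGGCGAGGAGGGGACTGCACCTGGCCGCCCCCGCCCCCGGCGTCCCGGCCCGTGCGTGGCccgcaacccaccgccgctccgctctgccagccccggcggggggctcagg
Gm49785 and Thap7: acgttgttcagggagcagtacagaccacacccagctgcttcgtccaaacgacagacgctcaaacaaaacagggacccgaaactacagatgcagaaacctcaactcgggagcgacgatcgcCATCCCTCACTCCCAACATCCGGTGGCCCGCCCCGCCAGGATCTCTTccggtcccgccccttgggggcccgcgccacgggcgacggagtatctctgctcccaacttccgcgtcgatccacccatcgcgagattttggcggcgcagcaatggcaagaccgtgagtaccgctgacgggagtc
2310010J17Rik and Picalm: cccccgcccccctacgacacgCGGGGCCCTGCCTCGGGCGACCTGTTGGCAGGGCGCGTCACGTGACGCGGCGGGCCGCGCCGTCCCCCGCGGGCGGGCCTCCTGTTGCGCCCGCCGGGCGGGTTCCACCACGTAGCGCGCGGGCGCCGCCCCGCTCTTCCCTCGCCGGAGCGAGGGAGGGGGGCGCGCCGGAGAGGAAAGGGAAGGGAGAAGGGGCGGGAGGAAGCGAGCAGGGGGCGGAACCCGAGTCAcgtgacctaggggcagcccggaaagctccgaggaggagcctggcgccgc
Gm20501 and Brsk2: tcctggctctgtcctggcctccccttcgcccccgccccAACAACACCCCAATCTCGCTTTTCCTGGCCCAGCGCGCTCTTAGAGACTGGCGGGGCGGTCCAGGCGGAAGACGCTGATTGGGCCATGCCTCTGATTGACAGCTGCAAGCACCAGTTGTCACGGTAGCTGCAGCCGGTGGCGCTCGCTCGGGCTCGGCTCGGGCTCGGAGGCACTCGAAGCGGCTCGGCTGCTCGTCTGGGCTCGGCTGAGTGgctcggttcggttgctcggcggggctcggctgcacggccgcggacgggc
Gm49741 and Nudt3: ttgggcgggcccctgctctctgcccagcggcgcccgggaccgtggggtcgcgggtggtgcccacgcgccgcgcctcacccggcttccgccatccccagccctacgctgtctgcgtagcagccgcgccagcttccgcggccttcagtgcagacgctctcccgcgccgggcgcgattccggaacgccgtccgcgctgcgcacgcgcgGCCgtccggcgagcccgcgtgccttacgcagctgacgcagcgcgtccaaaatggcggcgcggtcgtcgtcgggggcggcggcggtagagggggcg
AV356131 and Pik3c2a: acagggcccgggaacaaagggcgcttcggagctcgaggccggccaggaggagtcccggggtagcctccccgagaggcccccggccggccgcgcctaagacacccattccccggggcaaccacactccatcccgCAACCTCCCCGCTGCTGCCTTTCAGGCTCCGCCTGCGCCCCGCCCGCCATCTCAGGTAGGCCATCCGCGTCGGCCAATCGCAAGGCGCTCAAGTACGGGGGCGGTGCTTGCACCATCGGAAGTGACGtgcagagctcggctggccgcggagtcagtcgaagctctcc

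These 6 windows were rich in G and C. Their GC content was 70.3% for Gm49492, 62.0% for Gm49785, 78.0% for 2310010J17Rik, 69.3% for Gm20501, 77.0% for Gm49741 and 70.3% for AV356131, against a median of 52.7% over the 32851 promoters of the table. The observed over expected number of CpG dinucleotides was 0.702, 1.03, 0.971, 0.860, 1.19 and 0.844 in the same order, against a median of 0.384. 5 short motifs were searched on both strands. TATAAA, the core of a TATA box, was in none of the 6 windows and in 13.6% of all promoters. GGGCGG, the core of a GC box, was in all 6, with 2 to 6 matches each, and in 35.7% of all promoters. CGGAAG, the core of an ETS site, was in the windows of Gm49785, Gm20501, Gm49741 and AV356131 and in 16.9% of all promoters. CCAAT was in those of Gm20501 and AV356131 and in 37.4% of all promoters, and the NRF1 palindrome was in none of the 6 and in 0.971% of all. The starts are those of the annotation, and the motif matches are a description of the letters only. The 32851 promoters leave out chromosome 18 and covered 80 of the 101 partners, under 80% of them. The check of composition over the whole set was therefore void.

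The members were mostly weakly expressed genes next to stronger partners. Of the 89 genes of the type that did not reach the minimum, 76 reached 1 CPM in no library, 13 in 1 to 4 libraries, and 3 of the 89 had no count at all. Of the 101 members, 49 reached 1 CPM in all 50 libraries and 10 in fewer than 10. A member that passed through the libraries of 1 age had to differ between ages, so its age effect is partly fixed by the minimum. The minimum was taken on counts scaled to library size alone, without the TMM factors used for the other values. On that scale Gm49785 was just inside the minimum, with 1 CPM in 5 libraries (fifth-highest value 1.00 CPM, sixth-highest 0.960) and 11 to 45 counts per library. Just outside was Gm2449, divergent from Wdr48, with 1 CPM in 4 libraries (fourth-highest value 1.05 CPM, fifth-highest 0.995).

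The median exonic length of a member was 1770.0 bases (249 to 8887). In CPM per kilobase of exon (RPKM), the median mean level was 1.51 for members (0.131 to 35) and 9.45 for partners. The median level of a member was 21% of its partner's, with 29 members under 10% and 13 above their partner. All 101 partners were different genes and all passed the minimum. The members lay on 15 chromosomes, with 18 on chromosome 12, 13 on chromosome 10 and 12 on chromosome 17, and none on chromosomes 1, 2, 3, 5 or X.

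The pairs fell into 2 layouts, a split made after values were seen and therefore given as a description without a test. In 48 pairs the starts lay apart, so that member and partner ran away from each other, with a median of 114.5 bases between the starts (2 to 896). In 53 pairs the partner's start lay downstream of the member's, in the member's direction, by a median of 533 bases (15 to 12864). This layout is called overlapping, although overlap of the transcripts was not part of its definition. In the first layout 39 members shared no exonic base with any gene and 2 shared bases with the partner. In the second layout 50 members shared exonic bases with the partner, a median of 11.8% of the member's exonic length. Over all members, 42 shared no exonic base with another gene, 55 shared under 5%, and the highest share was 85.2%. Counts of most overlapping pairs can therefore hold fragments of the partner, and counts of most pairs with starts apart do not.

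The genotype comparison asked which genes differed between Setd1a+/- and wild type across the 5 ages, with age as a covariate. 9 of the 101 members (8.91%) passed an adjusted p of 0.05 over all 19108 genes, against 4.24% of all genes. Among these, Gm49785 reached the minimum through wild-type libraries alone, which partly fixed its lower level in Setd1a+/-. All 9 were lower in Setd1a+/-, and 3.56% of all genes were called lower. Their partners were a zinc finger protein gene (Zfp787), a POU homeobox gene (Pou6f1), a THAP-domain gene (Thap7), a clathrin assembly gene (Picalm), kinase genes (Brsk2, Ptk2 and the lipid kinase gene Pik3c2a), a signalling adaptor gene (Shc2) and a phosphatase gene of inositol pyrophosphates (Nudt3). None of these 9 partners was called, and their adjusted p ran from 0.0810 for Shc2 to 0.956 for Pik3c2a. In bulk tissue, fewer cells that express a gene and less of its RNA per cell cannot be told apart. These p-values reflect the spread between mice. Values of single libraries are given in the order of replicates 1 to 5.

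Gm36371 (ENSMUSG00000109108, chr7:6156516-6157618) starts 519 bases from Zfp787 and shared no exonic base with another gene. Gm36371 at E14 measured 1.04, 1.16, 0.734, 0.787 and 1.21 CPM in wild type and 0.730, 0.827, 1.02, 0.578 and 0.788 CPM in Setd1a+/-. Gm36371 at E18 measured 0.621, 0.973, 0.958, 0.975 and 0.853 CPM in wild type and 0.769, 0.435, 0.543, 0.431 and 0.350 CPM in Setd1a+/-. At E18 4 of the 5 Setd1a+/- libraries lay below every wild-type library, and at E14 the genotypes overlapped. Gm36371 at P7 measured 1.17, 0.876, 1.29, 0.616 and 0.685 CPM in wild type and 0.493, 0.607, 0.717, 0.861 and 0.674 CPM in Setd1a+/-. Gm36371 at P35 measured 1.44, 1.45, 1.92, 1.86 and 1.59 CPM in wild type and 1.1, 1.13, 1.32, 1.04 and 1.06 CPM in Setd1a+/-. Gm36371 at P70 measured 1.53, 2.03, 1.53, 1.88 and 2.10 CPM in wild type and 1.01, 0.770, 0.787, 1.4 and 1.45 CPM in Setd1a+/-. At P35 and at P70 every Setd1a+/- library lay below every wild-type library. The log2 fold change was -0.57 (SE 0.0917, adjusted p = 2.73e-05), and 24 of the 25 Setd1a+/- libraries were below the wild-type mean of their age. Zfp787 at P70 measured 21, 17.3, 17.4, 22.3 and 18.9 CPM in wild type and 19.2, 17.1, 18.7, 18.7 and 19.9 CPM in Setd1a+/-, which overlapped. Over the 5 ages the log2 fold change of Zfp787 was -0.04 (SE 0.0258, adjusted p = 0.497).

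Gm49492 (ENSMUSG00000116180, chr15:100600204-100602766) is the member opposite Pou6f1, 220 bases from start to start. Gm49492 at E14 measured 0.876, 1.62, 0.946, 1.37 and 1.03 CPM in wild type and 1.24, 0.973, 0.778, 0.987 and 1.29 CPM in Setd1a+/-. Gm49492 at E18 measured 1.79, 1.82, 2.06, 2.11 and 1.87 CPM in wild type and 1.74, 1.41, 1.21, 1.72 and 1.68 CPM in Setd1a+/-. The genotypes overlapped at E14 and did not at E18. Gm49492 at P7 measured 2.67, 3.15, 3.00, 2.77 and 3.22 CPM in wild type and 2.99, 2.08, 2.18, 2.95 and 2.52 CPM in Setd1a+/-. Gm49492 at P35 measured 7.14, 6.55, 6.72, 6.34 and 6.51 CPM in wild type and 5.58, 5.30, 4.99, 5.81 and 5.63 CPM in Setd1a+/-. Gm49492 at P70 measured 6.07, 4.58, 5.28, 7.98 and 8.43 CPM in wild type and 4.28, 3.85, 3.5, 3.63 and 6.22 CPM in Setd1a+/-. They overlapped at P7, were apart at P35, and at P70 overlapped only through Setd1a+/- replicate 5. Across the 5 ages its log2 fold change was -0.32 (SE 0.0714, adjusted p = 0.00293), with 22 of 25 Setd1a+/- libraries below the wild-type mean of their age. Pou6f1 itself had a log2 fold change of -0.01 (SE 0.0333, adjusted p = 0.917).

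Gm47163 (ENSMUSG00000111977, chr10:79637856-79639520) was the most abundant of the 9, at a mean of 11.3 RPKM beside 11.4 RPKM for Shc2. It overlaps the start of Shc2 by 62 bases, and 3.78% of its exonic bases are shared with it. Gm47163 at E14 measured 7.42, 10.1, 6.15, 6.57 and 5.71 CPM in wild type and 6.87, 4.06, 7.0, 5.37 and 4.47 CPM in Setd1a+/-. Gm47163 at E18 measured 8.19, 9.0, 7.78, 11.5 and 8.55 CPM in wild type and 8.44, 7.32, 6.87, 7.72 and 6.63 CPM in Setd1a+/-. At E18 replicate 1 was the only Setd1a+/- library inside the wild-type range. Gm47163 at P7 measured 12.8, 16.6, 11.9, 11.6 and 11.8 CPM in wild type and 11, 11, 13.2, 11.5 and 9.93 CPM in Setd1a+/-. Gm47163 at P35 measured 41.8, 40.1, 36.8, 36.1 and 43.8 CPM in wild type and 39.5, 34.2, 35.4, 34.0 and 34.9 CPM in Setd1a+/-. Gm47163 at P70 measured 32.6, 28, 26.8, 42 and 39.6 CPM in wild type and 26.3, 23.9, 23.6, 23.7 and 33.1 CPM in Setd1a+/-. At P35 only Setd1a+/- replicate 1, and at P70 only replicate 5, reached the wild-type range. Over all ages the fold change on the log2 scale was -0.27 (SE 0.0610, adjusted p = 0.00298), with 24 of 25 Setd1a+/- libraries below the wild-type mean. Shc2 was -0.13 (SE 0.0433) on the same scale and was not called.

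Gm49785 (ENSMUSG00000116898, chr16:17531182-17531518) is the short member just inside the minimum and starts 46 bases from Thap7. Gm49785 at E14 measured 1.12, 0.682, 0.71, 1.14 and 0.697 CPM in wild type and 0.405, 0.389, 0.802, 0.458 and 0.679 CPM in Setd1a+/-. Gm49785 at E18 measured 0.745, 0.973, 0.886, 0.928 and 0.568 CPM in wild type and 0.397, 0.666, 0.775, 0.726 and 0.575 CPM in Setd1a+/-. Setd1a+/- replicate 3 was the only one in the wild-type range at E14, and at E18 the groups overlapped. Gm49785 at P7 measured 0.648, 0.592, 0.790, 0.564 and 0.633 CPM in wild type and 0.519, 0.633, 0.345, 0.365 and 0.474 CPM in Setd1a+/-. Gm49785 at P35 measured 0.556, 0.501, 0.685, 1.05 and 0.604 CPM in wild type and 0.585, 0.404, 0.365, 0.449 and 0.292 CPM in Setd1a+/-. Gm49785 at P70 measured 0.418, 0.678, 0.596, 0.926 and 0.727 CPM in wild type and 0.532, 0.798, 0.543, 0.867 and 0.428 CPM in Setd1a+/-. A single Setd1a+/- library lay in the wild-type range at P7 (replicate 2) and at P35 (replicate 1), and the ranges overlapped widely at P70. No Setd1a+/- library passed 0.867 CPM, so Gm49785 reached the minimum through wild-type libraries alone. A lower Setd1a+/- level was therefore partly fixed by the minimum. The log2 fold change of Gm49785 was -0.45 (SE 0.109, adjusted p = 0.00667), with 23 of 25 Setd1a+/- libraries below the wild-type mean. For Thap7 it was -0.05 (SE 0.0258, adjusted p = 0.428).

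2310010J17Rik (ENSMUSG00000097162, chr7:90124822-90129984) lies 229 bases from the start of Picalm. 2310010J17Rik at E14 measured 1.29, 1.14, 1.16, 1.24 and 1.42 CPM in wild type and 1.46, 0.973, 1.51, 1.20 and 1.44 CPM in Setd1a+/-. 2310010J17Rik at E18 measured 1.42, 1.95, 1.6, 2.25 and 1.54 CPM in wild type and 1.39, 1.33, 1.34, 1.25 and 1.13 CPM in Setd1a+/-. It was the 1 called member whose mean was not lower in Setd1a+/- at E14, and at E18 the genotypes did not overlap. 2310010J17Rik at P7 measured 1.12, 2.30, 1.34, 1.39 and 1.69 CPM in wild type and 1.14, 1.35, 1.43, 1.04 and 1.05 CPM in Setd1a+/-. 2310010J17Rik at P35 measured 2.31, 2.09, 1.81, 1.74 and 2.14 CPM in wild type and 1.29, 2.18, 1.6, 1.32 and 1.70 CPM in Setd1a+/-. 2310010J17Rik at P70 measured 1.75, 1.98, 2.52, 2.18 and 2.78 CPM in wild type and 1.96, 1.16, 1.71, 1.68 and 1.65 CPM in Setd1a+/-. At P35 only replicate 2 and at P70 only replicate 1 of Setd1a+/- reached the wild-type range. The log2 fold change was -0.31 (SE 0.0769, adjusted p = 0.00933), with 21 of 25 Setd1a+/- libraries below the wild-type mean, beside 0.01 (SE 0.0170, adjusted p = 0.910) for Picalm.

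Gm20501 (ENSMUSG00000092536, chr7:141943704-141949539) lies 212 bases from the start of Brsk2, a kinase gene of neurons, and stood at 3.59% of its level. Gm20501 at E14 measured 5.64, 6.90, 6.03, 5.63 and 5.80 CPM in wild type and 5.54, 3.75, 4.54, 4.46 and 5.25 CPM in Setd1a+/-. Gm20501 at E18 measured 2.43, 2.24, 2.03, 2.16 and 2.11 CPM in wild type and 2.01, 1.92, 2.17, 1.41 and 2.98 CPM in Setd1a+/-. The genotypes were apart at E14 and overlapped at E18. Gm20501 at P7 measured 3.99, 7.93, 4.14, 3.75 and 4.01 CPM in wild type and 2.80, 2.72, 3.72, 2.95 and 3.57 CPM in Setd1a+/-. Gm20501 at P35 measured 2.03, 2.77, 3.32, 2.69 and 3.10 CPM in wild type and 2.85, 2.02, 2.47, 2.58 and 2.92 CPM in Setd1a+/-. Gm20501 at P70 measured 2.06, 2.44, 3.35, 2.97 and 3.32 CPM in wild type and 1.46, 2.15, 2.14, 1.73 and 2.88 CPM in Setd1a+/-. At P7 no Setd1a+/- library reached the wild-type range, whose top value came from replicate 2, the library that stood apart. Across ages the log2 fold change came to -0.32 (SE 0.0829, adjusted p = 0.0137), with 21 of 25 Setd1a+/- libraries below the wild-type mean, and that of Brsk2 was -0.02 (SE 0.0282, adjusted p = 0.872).

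Gm49741 (ENSMUSG00000116571, chr17:27623497-27624265) begins 2 bases from the start of Nudt3 and stood at 2.29% of its level. Gm49741 at E14 measured 0.930, 0.960, 0.970, 0.888 and 0.944 CPM in wild type and 0.919, 0.730, 0.972, 1.11 and 0.788 CPM in Setd1a+/-. Gm49741 at E18 measured 1.22, 1.14, 1.13, 1.09 and 1.37 CPM in wild type and 0.447, 0.717, 0.982, 0.794 and 1.00 CPM in Setd1a+/-. At E18 every Setd1a+/- library lay below every wild-type library. Gm49741 at P7 measured 1.22, 1.63, 1.19, 0.898 and 1.71 CPM in wild type and 0.883, 1.06, 1.14, 1.1 and 1.47 CPM in Setd1a+/-. Gm49741 at P35 measured 1.53, 1.69, 2.11, 2.19 and 1.13 CPM in wild type and 1.19, 1.43, 1.15, 1.57 and 1.25 CPM in Setd1a+/-. Gm49741 at P70 measured 1.98, 1.71, 1.76, 1.33 and 1.71 CPM in wild type and 1.29, 1.76, 1.33, 1.79 and 1.08 CPM in Setd1a+/-. At E14 and at the 3 postnatal ages the groups overlapped. On the log2 scale the genotype effect was -0.30 (SE 0.0826, adjusted p = 0.0216), with 20 of 25 Setd1a+/- libraries below the wild-type mean, and that of Nudt3 was 0.01 (SE 0.0343, adjusted p = 0.948).

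Gm49066 (ENSMUSG00000115810, chr15:73423311-73424109) begins 31 bases from the start of Ptk2, the gene of focal adhesion kinase. Gm49066 at E14 measured 1.09, 1.24, 0.946, 1.24 and 0.719 CPM in wild type and 0.649, 0.803, 0.948, 0.915 and 0.657 CPM in Setd1a+/-. Gm49066 at E18 measured 1.04, 1.80, 1.20, 1.51 and 1.99 CPM in wild type and 0.918, 1.28, 1.45, 0.749 and 1.33 CPM in Setd1a+/-. The genotypes overlapped at both embryonic ages. Gm49066 at P7 measured 0.797, 0.970, 1.26, 1.41 and 0.870 CPM in wild type and 0.883, 0.923, 0.956, 0.731 and 0.998 CPM in Setd1a+/-. Gm49066 at P35 measured 1.22, 1.4, 1.86, 1.77 and 1.95 CPM in wild type and 0.658, 1.1, 1.80, 1.66 and 1.17 CPM in Setd1a+/-. Gm49066 at P70 measured 0.891, 1.63, 1.25, 1.63 and 1.32 CPM in wild type and 1.01, 1.16, 1.19, 1.26 and 1.4 CPM in Setd1a+/-. They overlapped at every postnatal age too, with a lower Setd1a+/- mean each time. The genotype effect on the log2 scale was -0.31 (SE 0.0941, adjusted p = 0.0419), with 22 of 25 Setd1a+/- libraries below the wild-type mean, and that of Ptk2 was -0.01 (SE 0.0256, adjusted p = 0.924).

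AV356131 (ENSMUSG00000108461, chr7:116443575-116444324) lies 126 bases from the start of Pik3c2a and stood at 95.6% of its level. AV356131 at E14 measured 2.30, 2.22, 0.994, 2.46 and 2.65 CPM in wild type and 2.00, 1.14, 2.24, 1.44 and 1.79 CPM in Setd1a+/-. AV356131 at E18 measured 1.79, 2.19, 2.39, 2.60 and 2.06 CPM in wild type and 1.94, 2.38, 1.96, 2.27 and 1.83 CPM in Setd1a+/-. The genotypes overlapped at both embryonic ages. AV356131 at P7 measured 2.14, 2.53, 1.42, 1.72 and 1.45 CPM in wild type and 1.17, 1.48, 1.14, 1.28 and 0.873 CPM in Setd1a+/-. AV356131 at P35 measured 2.75, 3.22, 1.84, 2.16 and 2.50 CPM in wild type and 2.10, 1.62, 2.19, 1.77 and 2.71 CPM in Setd1a+/-. AV356131 at P70 measured 2.03, 2.39, 2.52, 3.43 and 2.62 CPM in wild type and 2.60, 2.56, 1.33, 1.73 and 2.51 CPM in Setd1a+/-. At P7 replicate 2 was the only Setd1a+/- library in the wild-type range. Its genotype effect on the log2 scale was -0.31 (SE 0.0937, adjusted p = 0.0449), with 20 of 25 Setd1a+/- libraries below the wild-type mean, and that of Pik3c2a was 0.01 (SE 0.0349, adjusted p = 0.956).

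**Figure D1:**
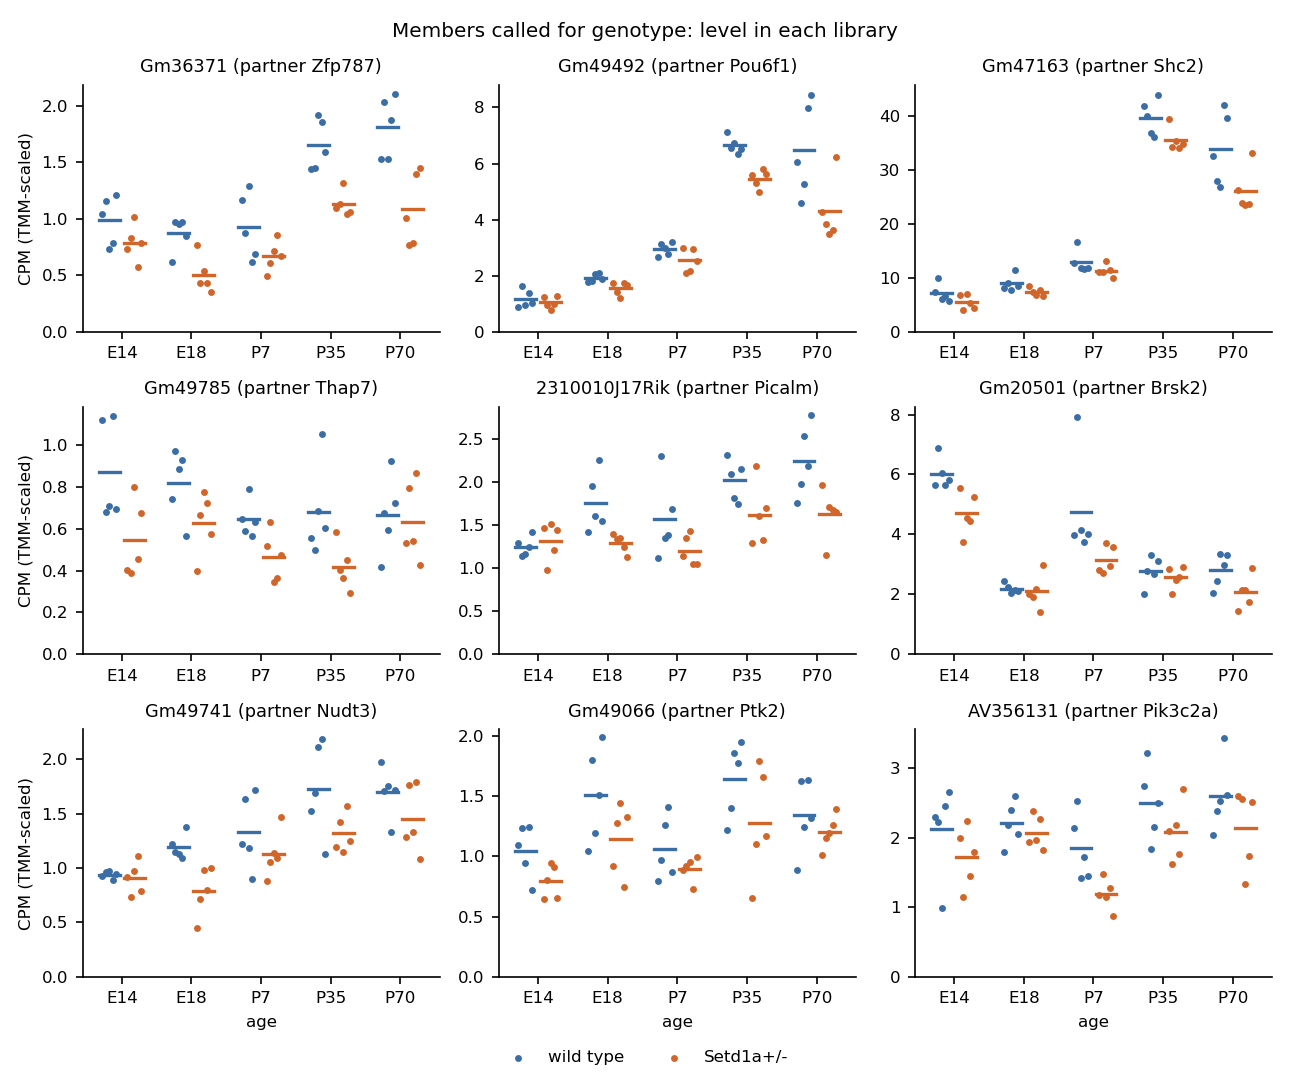
Level in CPM (vertical axis, linear from 0) of the 9 members called for genotype, by age, with 1 point per library and a bar at the mean of each group of 5. The Setd1a+/- mean is below the wild-type mean at all 5 ages in 8 of the 9, and for 2310010J17Rik at 4 of the 5.

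The call of Gm49066 and that of AV356131 depended on single libraries. Leaving out 1 library at a time, 7 of the 9 members kept their call in all 50 refits, Gm49066 lost it in 24 and AV356131 in 28. Without the 2 Xist libraries the count was 8 and AV356131 (adjusted p = 0.0728) was the member lost. Without WT P7 replicate 2 it was also 8, and again AV356131 was lost. Without Het E14 replicate 2 it was 7, and both Gm49066 and AV356131 were lost. At an unadjusted p under 0.05 there were 25 members, beside 2771 of all 19108 genes, and 24 of those 25 were lower.

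Of the 92 members not called, 55 (59.8%) were below 0. With the called ones, the median log2 fold change for genotype was -0.05 over the 101 members, 64 of which (63.4%) were below 0. Over all tested genes the median was 0.00 and 47.0% were below 0, and over the partners the median was 0.00 with 47 below 0. 18 members were lower in Setd1a+/- at all 5 ages (8.17% of all genes were) and 2 were higher at all 5 (5.75% of all genes). Of the other noncoding types, lincRNA genes had 19 called lower and 8 higher of 579, antisense genes 24 lower and 3 higher of 1351, and processed transcripts 12 lower and 0 higher of 449. Protein-coding genes had 596 lower and 116 higher of 15012. These counts are a description, and no test of the set against the others was made.

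2 partners were called for genotype although their members were not, and both are named because the count was small. Nudt8, opposite AC133523.4, had a log2 fold change of -0.39 (SE 0.0553, adjusted p = 2.90e-06) while AC133523.4 had -0.15 (SE 0.109, adjusted p = 0.597). Pgbd1, opposite 4930470G03Rik, had -0.29 (SE 0.0718, adjusted p = 0.00762) while 4930470G03Rik had 0.03 (SE 0.0278, adjusted p = 0.681). In both pairs the coding gene was lower and the member was not called.

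Whether a member changed by more than its partner was tested on the log2 ratio of the pair with limma, in 1 fit over 2346 pairs of a tested gene with a coding start within 2000 bases on the other strand. 98 members were in this fit and the other 3, Gm44140, 4930519K11Rik and 1700097N02Rik, lay farther from their partner. The ratio was called for genotype in 13 of the 98 (13.3%), against 10.1% of all pairs. It was lower in Setd1a+/- in 12 of the 13 (6.01% of all pairs were called lower and 4.05% higher), which included all 9 members called on their own. The ratio of Gm36371 to Zfp787 had a log2 fold change of -0.51 (SE 0.0875, adjusted p = 3.75e-05) and that of Gm49492 to Pou6f1 -0.30 (SE 0.0733, adjusted p = 0.00472). For the others of the 9 it was -0.14 (Gm47163, adjusted p = 0.0273), -0.38 (Gm49785, adjusted p = 0.0114), -0.30 (2310010J17Rik, adjusted p = 0.00696), -0.30 (Gm20501, adjusted p = 0.00678), -0.31 (Gm49741, adjusted p = 0.0262), -0.29 (Gm49066, adjusted p = 0.0260) and -0.31 (AV356131, adjusted p = 0.0277). These 9 were chosen for a lower level in the same libraries and most of their partners changed little, so their lower ratios followed largely from that choice. The other 3 lower ratios were those of Gm17249 to Polr3b, -0.21 (SE 0.0635, adjusted p = 0.0247), Ndufb1-ps to Cpsf2, -0.11 (SE 0.0341, adjusted p = 0.0257), and 0610009L18Rik to Actg1, -0.21 (SE 0.0706, adjusted p = 0.0436). The 1 higher ratio was that of 4930470G03Rik to Pgbd1, 0.33 (SE 0.0724, adjusted p = 0.00119), a pair in which the partner was lower.

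The genotype values are also given by the layout of the pair, as a description without a test between the layouts. Of the 48 members with starts apart 8 were called (16.7%), their median log2 fold change was -0.10, and 39 (81.3%) were below 0. Of the 53 with overlapping starts 1 was called (1.89%), the median was 0.00, and 25 (47.2%) were below 0. Of these 53, the 50 within 2000 bases of their partner had a median of -0.01 and 50% below 0. The same split was made for other noncoding genes with a coding start within 2000 bases on the other strand. With starts apart, 17 of 288 (5.90%) were called lower and 0 higher, with a median of -0.03 and 63.5% below 0. With overlapping starts 16 of 556 (2.88%) were called lower, with a median of 0.00 and 49.1% below 0. Most overlapping members can share fragments with their partner, and the part of that sharing in the smaller values of this layout was not tested.

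**Figure D2:**
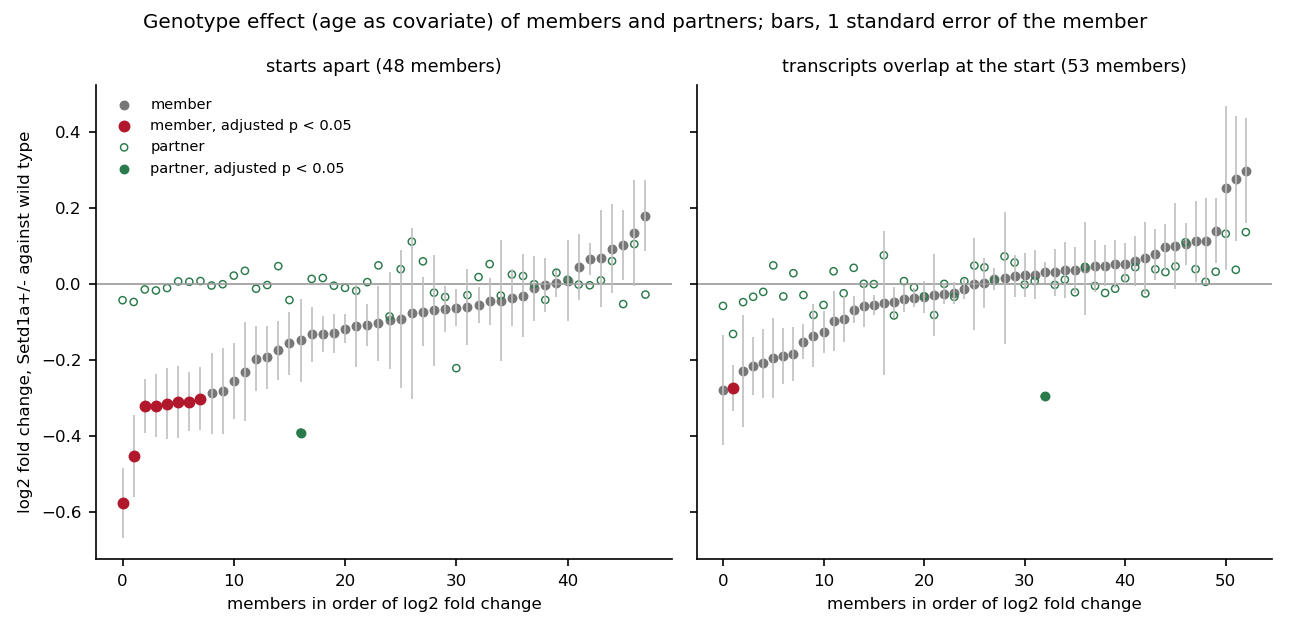
Log2 fold change of Setd1a+/- against wild type (vertical axis) for the members in order of that value (horizontal axis), in pairs with starts apart (48) and with overlapping starts (53). Filled circles are members with 1 standard error, red where called (8 and 1), and open green circles are their partners, filled where called.

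At single ages no member was called by edgeR. This held for E14 (0 of 101, against 0.0576% of all genes), E18 (0, against 0.089%), P7 (0, against 0.461%), P35 (0, against 0%) and P70 (0, against 0.188%). At an unadjusted p under 0.05 there were 9, 10, 10, 5 and 16 members from the youngest to the oldest age, beside 2017, 2111, 1674, 661 and 1270 of all 19108 genes, and all 16 at P70 were lower. DESeq2 gave 10, 11, 10, 5 and 15 unadjusted and called 2 members at P70, Gm49492 and 4732491K20Rik. limma-voom gave 10, 11, 10, 8 and 14 and called Gm49492 at P70. From E14 to P70, 65, 52, 60, 60 and 74 of the 101 members were below 0, against 58.8%, 44.6%, 51.4%, 46.3% and 47.6% of all genes. The median log2 fold changes of the members were -0.07, -0.02, -0.04, -0.05 and -0.09. The single-age fold changes of Gm49492 were -0.15, -0.31, -0.22, -0.28 and -0.59 from E14 to P70.

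Calls at single ages came and went with single libraries. Without Het P70 replicate 5 the P70 test called 3 members, Gm36371, Gm49492 (adjusted p = 0.00516) and 4732491K20Rik. Without WT P70 replicate 3 it called Gm49492 and 4732491K20Rik, and without WT P70 replicate 2 it called Gm49492. 4732491K20Rik was also called at P70 without Het E14 replicate 2, without WT E14 replicate 2 and without WT P7 replicate 3. At E14 BC051226 was called lower without Het E14 replicate 3. Gm26902, opposite Ch25h, was called higher at E14 without WT E14 replicate 5 (adjusted p = 0.0297) and without both Xist libraries (adjusted p = 0.0272). Gm26902 at E14 measured 0.0274, 0.0253, 0.0473, 0.0507 and 0.135 CPM in wild type and 0.162, 0.316, 0.292, 0.120 and 0.175 CPM in Setd1a+/-, so the highest wild-type value came from a library with Xist.

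The genotype effect did not pass the test of a difference between ages in any member. The joint test of the 4 interaction terms called 0 of 101 members, against 0% of all genes. 3 members had an unadjusted p under 0.05 by edgeR, 3 by DESeq2 and 7 by limma-voom, and none of these tools called any. A call at 1 age and not at another is therefore not shown to be a difference between ages.

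Age changed nearly all members, a share near that of all genes. 100 of the 101 (99.0%) were called for any difference between the 5 ages, against 98.1% of all genes, and the exception was Gm49785 (adjusted p = 0.0608). Between E14 and P70 88 members (87.1%) were called, against 90.8% of all genes. 50 rose (49.5%, against 44.4% of all genes) and 38 fell (37.6%, against 46.4%). The median log2 fold change was 0.22 for the members and -0.04 for all genes. Scaled by library size alone, the median of all genes moved to -0.19 and that of the members to 0.07, with 47 members higher and 41 lower.

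The members peaked at different ages, most at the first or the last ones, and no such tally of all genes is set beside theirs. The mean was highest at E14 in 34 members, at E18 in 9, at P7 in 9, at P35 in 31 and at P70 in 18. From E14 to E18 61 members were called, against 74.2% of all genes, 32 higher and 29 lower (36.8% and 37.5% of all genes). From E18 to P7 73 were called, against 77.2%, 36 higher and 37 lower (37.7% and 39.5% of all genes). From P7 to P35 68 of the 101 members were called, against 77.2%, 52 higher and 16 lower (38.8% and 38.4% of all genes). From P35 to P70 5 were called, against 10.1%. Of these 5, Gm27011 opposite Banp (0.96) and 4930470G03Rik opposite Pgbd1 (0.17) rose on the log2 scale, and Gm47163 opposite Shc2 (-0.34) and Gm47210 opposite Arsb (-0.19) were among the 3 that fell. That count was 0 in wild-type libraries alone, 10 without WT P70 replicate 5 and 9 without Het P70 replicate 5.

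The 6 largest rises from E14 to P70 all belonged to pairs in which the partner rose too. Of these members, Gm26512, Gm10649, AC148004.1 and Gm16998 did not pass 0.379 CPM in any E14 library. They reached the minimum through later ages alone, so their rises were partly fixed by it. Gm26512 lies opposite Dio2, the gene of the deiodinase that activates thyroid hormone. It measured 0.0657 to 0.253 CPM (median 0.128) over the 10 libraries at E14 and 3.40 to 7.09 CPM (median 5.46) at P70, with medians of 0.793, 3.02 and 4.66 CPM at E18, P7 and P35. Dio2 measured 1.12 to 2.96 CPM (median 2.11) at E14 and 70.3 to 123 CPM (median 97.3) at P70. No E14 library reached the P70 range of either gene. The log2 fold change was 5.18 (SE 0.209, adjusted p = 3.69e-28) for Gm26512, from 58 counts in the 10 E14 libraries together, and 5.56 (SE 0.160, adjusted p = 1.79e-34) for Dio2.

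Gm10649 lies opposite Nr3c2, the gene of the mineralocorticoid receptor. It measured 0.0722 to 0.328 CPM (median 0.137) at E14 and 3.13 to 4.19 CPM (median 3.70) at P70, and rose at each of the first 3 steps. Its log2 fold change was 4.43 (SE 0.205, adjusted p = 1.16e-25), next to 4.49 (SE 0.170, adjusted p = 2.53e-29) for Nr3c2. AC148004.1 lies opposite Mkx, a homeobox gene. It measured 0.0722 to 0.379 CPM (median 0.155) at E14, 0.876 to 6.31 CPM (median 4.96) at P7 and 2.77 to 5.03 CPM (median 4.09) at P70. The lowest P7 value of AC148004.1 was in WT replicate 2, where Mkx also had its lowest P7 value (4.26 CPM, median 22.7). From E14 to P70 the log2 fold change was 4.35 (SE 0.273, adjusted p = 2.64e-20) for the member and 4.38 (SE 0.223, adjusted p = 5.03e-24) for Mkx.

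Gm16998 lies opposite Man1a, a mannosidase gene of the Golgi. It measured 0 to 0.170 CPM (median 0.0599) at E14, from 27 counts in 10 libraries, and 0.844 to 1.92 CPM (median 1.25) at P70. It did not pass 0.690 CPM at E14, E18 or P7 and reached the minimum through P35 and P70, so a rise was largely fixed by the minimum. At 3 counts or fewer in 7 of the 10 E14 libraries, the size of its rise is also uncertain. Its log2 fold change was 4.26 (SE 0.260, adjusted p = 9.03e-21), and that of Man1a was 2.59 (SE 0.0936, adjusted p = 3.00e-30). Gm7276 lies opposite St8sia5, a sialyltransferase gene. It measured 0.634 to 1.19 CPM (median 1.00) at E14 and 13.2 to 23.3 CPM (median 17.9) at P70, with a log2 fold change of 4.25 (SE 0.112, adjusted p = 5.31e-36) and 4.56 (SE 0.106, adjusted p = 2.09e-38) for St8sia5. Gm47863 lies opposite Jdp2, a gene of a Jun dimerization protein. It measured 0.540 to 0.970 CPM (median 0.740) at E14 and 9.84 to 16.5 CPM (median 11.3) at P70, with a log2 fold change of 3.98 (SE 0.106, adjusted p = 8.76e-36) and 3.79 (SE 0.105, adjusted p = 4.15e-35) for Jdp2.

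The 6 largest falls were more mixed in what the partner did. Gm11280 lies opposite Zfp184, a zinc finger protein gene. It measured 0.730 to 1.29 CPM (median 1.04) at E14 and 0 to 0.165 CPM (median 0.0558) at P70, where the 10 libraries held 26 counts together. Its log2 fold change was -3.80 (SE 0.326, adjusted p = 2.66e-15), and that of Zfp184 was -3.15 (SE 0.0853, adjusted p = 1.45e-35). Gm11280 reached the minimum in 7 libraries at E14 and 1 at E18, so a fall was largely fixed by the minimum, and 7 of its 10 P70 libraries had 3 counts or fewer, so its size is uncertain. Gm16576 lies opposite Sun2, which encodes a protein of the inner nuclear membrane. It measured 6.07 to 8.99 CPM (median 7.0) at E14, 0.467 to 1.42 CPM (median 1.05) at P7 and 0.853 to 1.45 CPM (median 1.11) at P70. Its log2 fold change of -2.69 (SE 0.134, adjusted p = 2.24e-24) was larger than that of Sun2, -1.05 (SE 0.0867, adjusted p = 6.40e-16). Sun2 was higher at P35 (median 56.3 CPM) than at P7 (median 27.4 CPM), while Gm16576 stayed near its P7 level (median 1.23 CPM at P35).

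Gm4890 and Gm20337 fell beside partners that ended near their E14 level. Gm4890 lies opposite Mmaa, a gene of mitochondrial cobalamin metabolism. It measured 0.996 to 3.17 CPM (median 1.99) at E14 and 0.255 to 0.660 CPM (median 0.400) at P70, while Mmaa measured 18.6 to 25.4 CPM (median 21.5) and 20.4 to 27.1 CPM (median 23.9). Mmaa was lower at E18 and P7, with medians of 17.98 and 16.8 CPM. The log2 fold changes were -2.23 (SE 0.205, adjusted p = 2.83e-14) and 0.13 (SE 0.0497, adjusted p = 0.0111). No P70 library of Gm4890 passed 0.660 CPM, so its fall was partly fixed by the minimum. Gm20337 lies opposite Srsf5, a splicing factor gene of high level. It measured 0.486 to 1.33 CPM (median 0.937) at E14 and 0.0839 to 0.363 CPM (median 0.184) at P70, while Srsf5 measured 282 to 362 CPM (median 325) and 279.8 to 350.1 CPM (median 305). Gm20337 reached the minimum in 5 libraries at E14 and 1 at P7, so its fall too was largely fixed by the minimum. The log2 fold changes were -2.13 (SE 0.214, adjusted p = 4.93e-13) and -0.07 (SE 0.0428, adjusted p = 0.127).

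E130317F20Rik lies opposite Ptbp1, the splicing regulator that neurons lose as they differentiate, and was abundant. It measured 22.3 to 31.9 CPM (median 28.2) at E14 and 4.08 to 8.35 CPM (median 6.19) at P70, with a log2 fold change of -2.13 (SE 0.0895, adjusted p = 1.76e-27) and -2.49 (SE 0.0718, adjusted p = 2.05e-34) for Ptbp1. 1700097N02Rik lies opposite Dnah8, an axonemal dynein gene, and was a gene of P7, the only age at which it reached the minimum. It measured 0.118 to 0.590 CPM (median 0.300) at E18 and 0.828 to 1.97 CPM (median 1.43) at P7. It had 19 counts in the 10 E14 libraries and 3 in the 10 P70 libraries, so nearly all of these libraries were at 3 counts or fewer and no fold is given between those ages. Dnah8 was also highest at P7, with medians of 1.44, 2.42, 3.85, 0.565 and 0.543 CPM from E14 to P70.

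**Figure D3:**
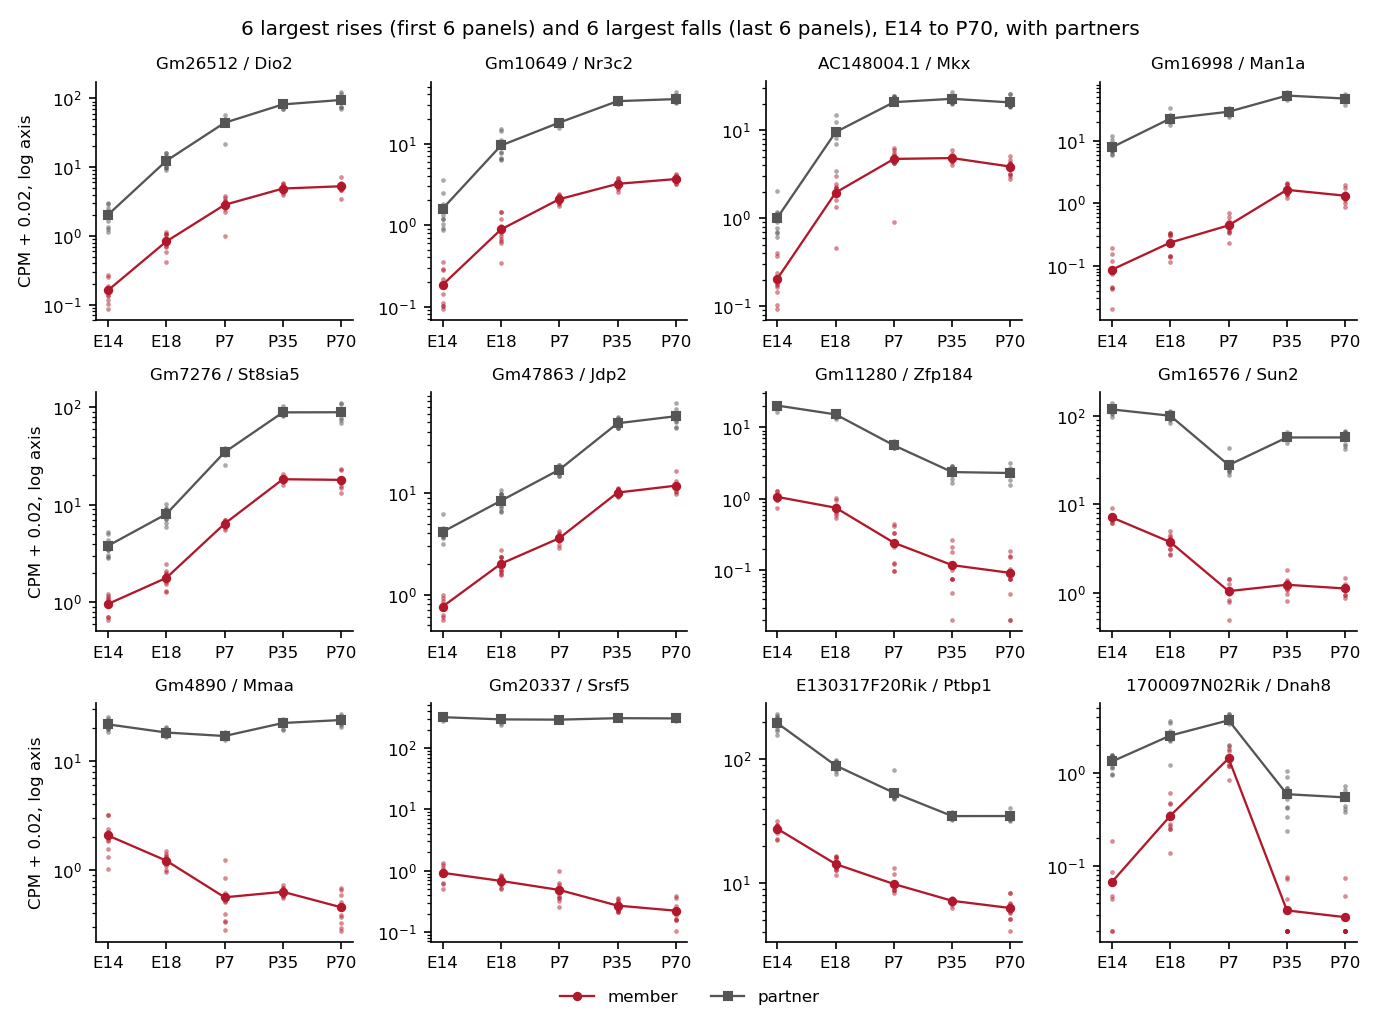
Level in CPM plus 0.02 (vertical log axis) at the 5 ages for the members with the 6 largest rises and the 6 largest falls, each beside its partner. Points are libraries of both genotypes and lines join the means of 10. The partners of the 6 rises rise with them, while Mmaa and Srsf5 end near their E14 level beside falling members.

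Across the set, member and partner tended to move together with age. The 2 layouts are also given apart and were not compared by a test. Of the 50 members that rose, 30 had a partner that rose, 17 a partner that fell and 3 a partner not called. Of the 38 that fell, 32 had a partner that fell, 3 a partner that rose and 3 a partner not called. Pearson's r between the log2 fold changes of member and partner was 0.80 over 101 pairs, 0.61 over the 48 with starts apart and 0.89 over the 53 with overlapping starts. These are correlations across genes in the same libraries, and in most overlapping pairs the 2 values can share fragments. The median absolute difference between member and partner was 1.02 in the first layout and 0.27 in the second.

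Some pairs moved in opposite directions with age, a count that was not tested between the layouts. Both genes were called in 37 of these 48 pairs and they moved in opposite directions in 15, with the member up and the partner down in 13. In the overlapping layout both were called in 45 pairs and 5 moved in opposite directions. Examples, chosen after values were seen, are 1500026H17Rik opposite Scyl2, with 1.59 (SE 0.143, adjusted p = 1.35e-14) against -0.82 (SE 0.0319, adjusted p = 6.00e-29), and 5430400D12Rik opposite Ap3s2, with 1.59 (SE 0.230, adjusted p = 1.39e-08) against -0.67 (SE 0.0294, adjusted p = 1.31e-26). In the other layout Gm47484 opposite Zfp410 had 1.24 (SE 0.0751, adjusted p = 6.21e-21) against -1.34 (SE 0.0471, adjusted p = 9.12e-31), and AC114539.1 opposite Nfkb2 had -0.61 (SE 0.164, adjusted p = 0.000597) against 2.32 (SE 0.0913, adjusted p = 1.11e-28).

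4 of the members called for genotype were in this group. Gm36371 rose by 0.67 (SE 0.143, adjusted p = 2.62e-05) while Zfp787 changed by -0.56 (SE 0.0409, adjusted p = 9.93e-18). Gm49492 rose by 2.25 (SE 0.118, adjusted p = 1.79e-23) while Pou6f1 changed by -0.47 (SE 0.0527, adjusted p = 1.45e-11). 2310010J17Rik rose by 0.57 (SE 0.122, adjusted p = 2.96e-05) while Picalm changed by -0.56 (SE 0.0269, adjusted p = 6.29e-25). AV356131, at 0.30 (SE 0.147, adjusted p = 0.0496) against -0.55 (SE 0.0551, adjusted p = 5.70e-13) for Pik3c2a, was close to the threshold. Gm20501 had another course, high at E14 and P7 and low at E18, and its log2 fold change of -1.13 (SE 0.131, adjusted p = 4.09e-11) stood beside -0.04 (SE 0.0446, adjusted p = 0.409) for Brsk2.

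**Figure D4:**
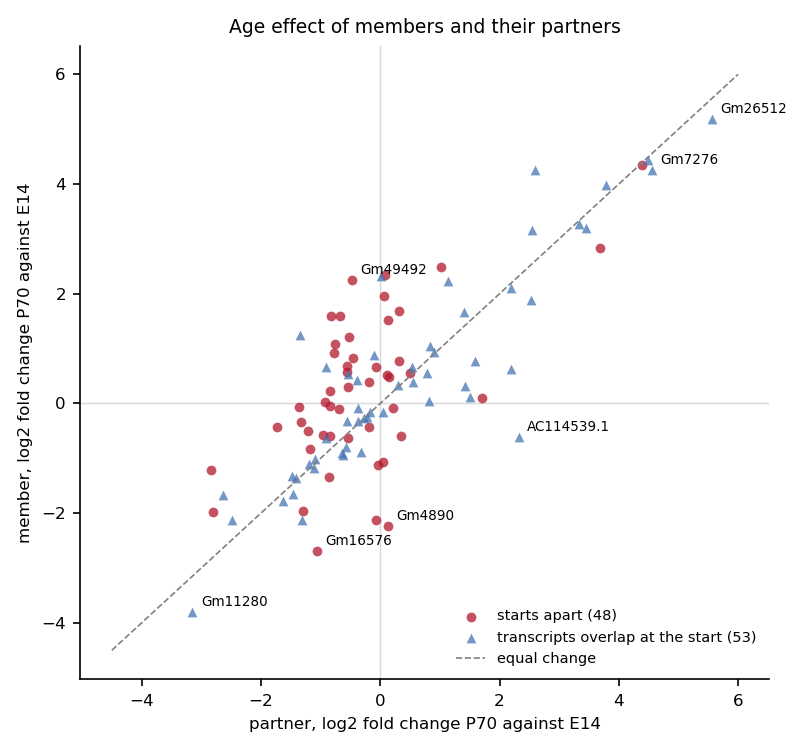
Log2 fold change of P70 against E14 for the partner (horizontal axis) and the member (vertical axis), 1 point per pair, with circles for the 48 pairs with starts apart and triangles for the 53 with overlapping starts. Triangles lie close to the dashed line of equal change (r = 0.89) and circles scatter more widely (r = 0.61), with 13 called pairs where the member is up and the partner down.

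The ratio of member to partner was called between E14 and P70 in 73 of 98 pairs (74.5%), against 77.6% of all pairs in that fit. It rose in 48 and fell in 25 (40.6% and 36.96% of all pairs). With starts apart it was called in 42 of 48 pairs, higher at P70 in 32 and lower in 10. With overlapping starts it was called in 31 of 50 pairs, higher in 16 and lower in 15. The ratio of Gm49492 to Pou6f1 changed by 2.66 (SE 0.116, adjusted p = 2.34e-27) and that of Gm4890 to Mmaa by -2.23 (SE 0.201, adjusted p = 1.26e-14) on the log2 scale. The share of pairs called was near that of all divergent pairs, so a changed ratio was not peculiar to the members.

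The 5 most abundant members per length all passed the test for age, as did 98.1% of all genes. Gm17251, opposite Rab11b, a small GTPase gene of recycling endosomes, had a mean of 35 RPKM beside 28.1 for Rab11b, and shared 35.6% of its exonic bases with it. It measured 31.8 to 41.9 CPM (median 36.2) at E14 and 26.8 to 34.5 CPM (median 30.8) at P70, a log2 fold change of -0.25 (SE 0.0405, adjusted p = 2.30e-07). Gm36236, opposite Kidins220, a scaffold gene of neurotrophin signalling, had 26.9 RPKM and a log2 fold change of -0.32 (SE 0.0879, adjusted p = 0.000935). Ndufb1-ps, opposite Cpsf2, a gene of the cleavage and polyadenylation complex, had 23.0 RPKM and rose by 0.53 (SE 0.0554, adjusted p = 1.69e-12) while Cpsf2 changed by -0.53 (SE 0.0295, adjusted p = 1.76e-22). The symbol of Ndufb1-ps carries the suffix of a pseudogene, while the annotation gives it the type of the members. Whether reads of another gene of near-identical sequence are in its counts was not checked, and its values carry that limit. 1700081N11Rik, opposite Cfl2, an actin-binding protein gene, had 19.9 RPKM and changed by -1.02 (SE 0.0465, adjusted p = 6.55e-26), next to -1.09 (SE 0.0379, adjusted p = 5.75e-31) for Cfl2. Gm26631, opposite Fam219b, had 18.5 RPKM and changed by 0.43 (SE 0.0532, adjusted p = 2.71e-10). None of these 5 was called for genotype by edgeR, and their log2 fold changes ran from -0.07 to 0.05.

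By the beginning of the symbol, 7 partners were grouped as transcription factor genes or their binding partners (Atf7ip, Nr3c2, Pou6f1, Zfp184, Zfp410, Zfp523 and Zfp787), a grouping that misses others such as Mkx, Jdp2, Thap7 and Nfkb2. Of the 7 members opposite these, 2 were called for genotype and 5 were higher and 2 lower at P70. Of the other 94, 7 were called for genotype and 45 were higher and 36 lower at P70. Over all genes 4.24% were called for genotype, 44.4% were higher and 46.4% lower at P70, and the 2 groups were not compared by a test.

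Genes that act on the ending, decay, splicing or elongation of divergent RNA were read from a list of 52, all tested, whose parts have different and in places opposite roles. Between E14 and P70 49 of these fell, against 46.4% of all genes, and 2 rose, with a median log2 fold change of -0.80, while 50 members rose and 38 fell. By group, those that fell were 14 of 14 Integrator genes, 10 of 11 nuclear exosome genes, 5 of 5 exosome adaptor genes, 4 of 4 cap-binding genes, 3 of 3 U1 snRNP genes, 9 of 10 cleavage, polyadenylation and termination genes and 4 of 5 elongation genes. The summed level of the Integrator genes was 844 to 935 CPM (median 889) at E14 and 509.9 to 589.8 CPM (median 563) at P70, and that of the nuclear exosome genes was 372 to 423 CPM (median 397) and 200.1 to 221 CPM (median 211). For genotype 2 of the 52 genes were called, against 4.24% of all genes, both Integrator subunits and both lower. Ints5 had a log2 fold change of -0.13 (SE 0.0257, adjusted p = 0.000750) and Ints9 of -0.11 (SE 0.0266, adjusted p = 0.00917). Their part in the values of the members was not tested.

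Many markers of cell types were called for age and none for genotype by edgeR. Of 65 listed markers 61 were tested, and Hoxa2, Hoxb2, Hoxa3 and En1, which mark hindbrain, did not reach the minimum. At P70 22 were higher and 32 lower than at E14. All 4 astrocyte, all 4 oligodendrocyte and all 4 microglia markers rose, and all 6 progenitor markers fell. The summed level of the astrocyte markers, of which Gfap had the highest RPKM, was 38.9 to 127 CPM (median 73.6) at E14 and 384 to 439 CPM (median 413) at P70, and that of the microglia markers, of which Csf1r had the highest RPKM, was 29.1 to 64.7 CPM (median 35.8) and 166 to 189 CPM (median 179). That of the progenitor markers, of which Sox2 had the highest RPKM, was 1071 to 1515 CPM (median 1294) and 90.2 to 130.4 CPM (median 107). The part of these levels in the age effects of the members was not tested.

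The other markers were more varied. Of 7 cortical projection neuron markers 1 rose and 6 fell, of 7 interneuron and ganglionic eminence markers 2 rose and 5 fell, of 6 striatum markers 4 rose and 2 fell, and 4 of 4 diencephalon markers fell. The 1 hindbrain marker tested, En2, rose, 4 of 5 choroid plexus markers fell, 1 of 3 endothelial markers rose, 2 of 4 meningeal fibroblast markers fell, 3 of 3 erythroid markers fell and 1 of 3 olfactory bulb markers rose. For genotype edgeR called 0 of the 61, with 4 at an unadjusted p under 0.05. limma-voom called 0, with 0 unadjusted, and DESeq2 called 1, with 4 unadjusted. That gene was the choroid plexus marker Ttr (adjusted p = 0.00882 by DESeq2, and -2.57 on the log2 scale with SE 1.17 by edgeR), whose list varied widely between embryonic libraries and was highest in WT P7 replicate 2 (605 CPM). The summed choroid plexus level was 11.6 to 389 CPM in wild type and 14.4 to 449 CPM in Setd1a+/- at E14. At E18 it was 10.6 to 229.7 CPM in wild type, with 2 libraries above 190, and 4.40 to 12.7 CPM in Setd1a+/-. Its part in the genotype values of the members was not tested.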

How the data were processed

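The values are raw counts per gene in 50 libraries, deposited by the authors and made from poly-A captured, paired-end reads of a single sequencing batch with Trimmomatic, FastQC, STAR (GRCm38) and featureCounts 1.4.6-p2, without normalization. Gene types, names and positions came from GENCODE vM21 (GRCm38), which held 55141 (99.4%) of the 55487 genes. A partner is the protein-coding gene on the opposite strand whose start is nearest to the member's.

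Genes at 1 CPM in 5 or more libraries (19108) were given TMM factors, and edgeR 4.0.16 (quasi-likelihood, R 4.3.3) fitted them for genotype with age as a covariate, for age with genotype as a covariate, for the 4 interaction terms, and for genotype at each age in a fit of the 10 groups. Pair ratios used log2 CPM with a prior count of 2 in limma 3.58.1, with starts within 2000 bases (2346 pairs). P-values were adjusted over all genes or pairs by the Benjamini-Hochberg method and called under 0.05. The SE of an edgeR value was derived from its test, as the absolute log2 fold change divided by the square root of the F statistic. CPM in the text is TMM-scaled, except at the minimum, where it is scaled to library size alone. RPKM is CPM per kilobase of exon. The fits were also tested on simulated data, whose outcome is not given here. Promoters were RefSeq sequences of GRCm38.p6, without those on chromosome 18. Figures were drawn with matplotlib 3.10.9 (Python 3.11.15, pandas 2.3.3).

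Named were members called for genotype, the 6 largest called rises and falls between E14 and P70, the 5 with the highest mean RPKM, those at the edge of the minimum, and their partners, with the exceptions given. The members and lists (Integrator, nuclear exosome, exosome adaptors, cap-binding, U1 snRNP, cleavage, polyadenylation and termination, elongation, and 14 marker lists) were chosen with earlier results of these data known. Alternatives were DESeq2's size factors, library size only, filterByExpr, no filter, 10 CPM in 5 libraries, coding genes and members only, DESeq2 1.42.0, limma-voom, an adjusted p of 0.01, RNA integrity as a covariate, a replicate block, omission of the Xist libraries or of each library, wild type only, members with under 5% shared exonic bases, prior counts of 0.5 and 5, partners by transcript start, and starts within 1000 bases. Other data of the study were not used here.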

Additional observations from a re-analysis of the deposited data

Results flagged for a closer look

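Among 26 named genes in 10 groups of 5 libraries (260 groups), 14 values passed Dixon's gap test for a group of 5. Chance alone gives about 1 in 20 groups.

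2 of these values came from WT P7 replicate 2, which also stood apart in its marker levels. Gm47163 measured 16.6 CPM there, against 11.6 to 12.8 in the other 4, and Gm20501 measured 7.93 CPM, against 3.75 to 4.14. 2 came from Het P70 replicate 5. Gm49492 measured 6.22 CPM there, against 3.5 to 4.28, and Gm47163 measured 33.1 CPM, against 23.6 to 26.3. In all 4 the library was the highest of its group.

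The other 10 each came from a different library. Gm47163 measured 39.5 CPM in Het P35 replicate 1, against 34.0 to 35.4. AV356131 measured 0.994 CPM in WT E14 replicate 3, against 2.22 to 2.65. Gm16998 measured 0.124 CPM in Het E18 replicate 1, against 0.282 to 0.318. Gm47863 measured 16.5 CPM in WT P70 replicate 3, against 11.2 to 12.2. Gm20337 measured 0.337 CPM in Het P35 replicate 3, against 0.195 to 0.215. E130317F20Rik measured 22.3 CPM in Het E14 replicate 3, against 27.6 to 29.3. It also measured 12.7 CPM in WT E18 replicate 4, against 15.5 to 16.7, and 6.68 CPM in Het P35 replicate 2, against 7.43 to 7.55. 1700097N02Rik measured 0.0554 CPM in WT P35 replicate 4, where the other 4 libraries had 0. Gm17251 measured 35.1 CPM in Het P7 replicate 1, against 29.3 to 30.6.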

How the results depend on the processing

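The number of members called for genotype was 9. It was 6 to 10 under the other scalings, filters, tools and covariates, except 1 with a minimum of 10 CPM, where 26 members were tested, and 5 at an adjusted p of 0.01. Leaving out 1 library at a time gave 7 to 11 members and 737 to 906 of all genes (811), which numbered 441 at 0.01. All 9 stayed below 0 in every fit that tested them, and at 10 CPM only Gm47163 of the 9 was tested. AV356131 lost its call with filterByExpr, without a filter, with limma-voom and without the Xist libraries, and Gm49066 and Gm49741 without a filter.

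With the replicate block, 10 members and 899 genes were called, and 8 of the 9 members were among these (AV356131, adjusted p = 0.0856, was not, and 2810013P06Rik and Gm47484 were added). The labels do not say whether equal numbers pair the libraries, and the correlations between them cannot settle it. Same-numbered WT and Setd1a+/- libraries deviated from their group means with r from -0.214 to 0.465, above 0.1 in 9 of 25 pairs, and 8 correlated best with their own number.

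Single-age calls (0) became 1 without a filter (Haglr at P7, a gene below the minimum), 2 with DESeq2, 1 with limma-voom, 1 with RNA integrity (Gm49492 at P70) and 1 without the Xist libraries. They were 0 to 3 without 1 library (Het E14 replicate 2, WT E14 replicate 2, Het E14 replicate 3, WT E14 replicate 5, WT P7 replicate 3, WT P70 replicate 2, WT P70 replicate 3 and Het P70 replicate 5). The interaction count was 0 in every alternative run.

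For any age, 153 of 187 genes were called without a filter and 26 of 26 at 10 CPM, and 99 to 101 without 1 library. From E14 to P70 these were 25 of 26 at 10 CPM, 45 of 55 with under 5% shared bases, and 87 to 89. Steps at 10 CPM gave 19, 23 and 20 for the first 3, and without 1 library 57 to 63, 68 to 73 and 64 to 71. The last step gave 0 in wild type alone, 3 at 0.01, and 4 to 10 (10 without WT P70 replicate 5, 9 without Het P70 replicate 5). The age ratio was called in 128 of 179 pairs without a filter, 18 of 24 at 10 CPM, 46 of 55 with under 5% shared bases, and 71 to 77. The genotype ratio was called in 2 at 10 CPM, 5 at 0.01, and 12 to 15. Another minimum changes how many members are tested, and 0.01 is a stricter threshold. Causes of the other changes were not tested. 1700097N02Rik lost its E14 to P70 call in wild type alone (adjusted p = 0.0888).

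Depth limits members with few counts, such as Gm49785 with 11 to 45 per library. Counts of most overlapping pairs can share fragments, poly-A capture does not measure RNA without a tail, and 5 mice a group limit each single-age test.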
